A study of Homo sapiens with 24 samples.

Results

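S100A8 and S100A9 are small calcium-binding proinflammatory proteins, and chromatin immunoprecipitation of Flag-tagged versions was used to ask where they associate with the genome before and after transformation of breast epithelial cells. Described here are the peaks that lie on the unplaced sequences of the human assembly hg19, that is, sequences whose names mark them as unassigned to a chromosome (chrUn) or as assigned to a chromosome without a position (random). The members were chosen by sequence name from the peaks that the authors called against input, so the fold enrichment and the q value of each peak had already been used to select it, and both are given as a description without a test. There were 805 such peaks among 560125 in 11 lists, 348 of them on chrUn_gl000220, the sequence that carries ribosomal DNA, and 457 on 28 other sequences. Every deposited peak was taken whatever its q. The weakest member had a −log10 q of 1.33, and the lists end at q = 0.05.

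The cells were MCF-10A, an immortalised and nontransformed human mammary epithelial line, in which the viral oncoprotein v-Src had been joined to the hormone-responsive part of the estrogen receptor (ER-Src) so that it can be switched on by a ligand. They stably expressed S100A8-Flag or S100A9-Flag. All 4 groups shared ER-Src and a Flag-tagged protein and differed in which protein it was and in the treatment, which was 24 hours in 1 μM 4-hydroxytamoxifen (TAM), which activates v-Src and transforms the cells, or in ethanol (EtOH), the solvent. Lists were held for 2 S100A8-Flag EtOH, 3 S100A8-Flag TAM, 3 S100A9-Flag EtOH and 3 S100A9-Flag TAM libraries. Neither Flag precipitation from cells without the tag nor the input libraries were analysed here, so the reads that all Flag libraries share with input could not be examined on their own.

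Ribosomal RNA is transcribed by RNA polymerase I from tandem repeats on the short arms of the acrocentric chromosomes. Each repeat holds a transcribed unit, which gives the 18S, 5.8S and 28S rRNAs from a common 45S precursor, followed by a long intergenic spacer. A cell has many such repeats while the assembly holds few, and unplaced sequences in general are rich in segments that also occur elsewhere, so that reads from many copies can meet on a few positions or find no unique position at all. The authors kept only uniquely mapped reads.

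The sequences below come from 8 regions that were called in all 11 libraries and are on the plus strand of hg19. Each shows 100 bp on either side of the summit of the peak with the highest fold percentile within its own library. This need not be the peak with the highest fold. Capitals mark the motif matches that a search on both strands found, and windows without capitals held none. The first 4 lie on chrUn_gl000220. The window that begins at 118901 lies in the region with the smallest q values of most lists, downstream of the first 5.8S rRNA match, and is the most GC-rich of the 8. Its centre is the highest summit of S100A9-Flag EtOH replicate 1 alone. Those of the other libraries in that region lie outside the window.
chrUn_gl000220:96971-97171: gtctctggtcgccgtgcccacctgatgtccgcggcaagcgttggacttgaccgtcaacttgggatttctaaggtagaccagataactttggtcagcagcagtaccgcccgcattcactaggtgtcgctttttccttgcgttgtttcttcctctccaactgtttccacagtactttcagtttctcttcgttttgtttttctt
chrUn_gl000220:7676-7876: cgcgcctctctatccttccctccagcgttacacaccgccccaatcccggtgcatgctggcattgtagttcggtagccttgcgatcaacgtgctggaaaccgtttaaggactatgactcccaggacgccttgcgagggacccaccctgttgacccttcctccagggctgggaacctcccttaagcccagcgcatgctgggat
chrUn_gl000220:118901-119101: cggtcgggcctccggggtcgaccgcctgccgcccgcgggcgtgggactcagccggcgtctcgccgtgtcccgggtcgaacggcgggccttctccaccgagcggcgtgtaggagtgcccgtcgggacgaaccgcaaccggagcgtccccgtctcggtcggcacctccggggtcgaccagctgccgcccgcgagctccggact
chrUn_gl000220:93640-93840: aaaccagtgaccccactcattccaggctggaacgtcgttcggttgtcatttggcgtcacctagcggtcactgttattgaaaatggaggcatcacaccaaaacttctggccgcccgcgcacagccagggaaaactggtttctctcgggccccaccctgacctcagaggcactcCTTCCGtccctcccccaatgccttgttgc
The other 4 are the highest-ranked regions elsewhere.
chr7_gl000195_random:103338-103538: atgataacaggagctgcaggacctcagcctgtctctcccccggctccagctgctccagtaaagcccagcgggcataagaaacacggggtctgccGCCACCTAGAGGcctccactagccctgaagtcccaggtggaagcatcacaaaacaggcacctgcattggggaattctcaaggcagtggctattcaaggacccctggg
chrUn_gl000219:99682-99882: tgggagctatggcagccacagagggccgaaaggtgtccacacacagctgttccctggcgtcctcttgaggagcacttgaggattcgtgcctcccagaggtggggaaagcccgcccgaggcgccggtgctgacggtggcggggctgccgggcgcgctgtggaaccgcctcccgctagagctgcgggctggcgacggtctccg
chr7_gl000195_random:32395-32595: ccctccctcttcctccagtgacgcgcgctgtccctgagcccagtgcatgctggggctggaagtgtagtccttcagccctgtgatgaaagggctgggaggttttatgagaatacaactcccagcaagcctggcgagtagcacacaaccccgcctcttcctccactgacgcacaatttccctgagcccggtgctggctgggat
chr17_gl000205_random:85365-85565: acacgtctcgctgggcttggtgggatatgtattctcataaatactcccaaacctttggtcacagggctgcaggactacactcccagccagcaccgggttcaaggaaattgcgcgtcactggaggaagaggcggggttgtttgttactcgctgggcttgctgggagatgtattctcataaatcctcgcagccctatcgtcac
GC content was 49.3%, 59.7%, 76.6% and 57.2% in the chrUn_gl000220 windows in the order shown, and 58.7%, 69.2%, 59.7% and 53.2% in the others. The window at 118901 held 35 CpG dinucleotides, against 4 to 18 in the other 7. The capitals mark a CTCF motif in the first chr7_gl000195_random window and an ETS motif (CGGAAG, here on the minus strand) in the chrUn_gl000220 window that begins at 93640.

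The number of peaks on unplaced sequences did not pass the test between treatments, while lists as a whole were several times longer with TAM. The numbers were 51 and 55 in the S100A8-Flag EtOH libraries, 112, 53 and 63 in S100A8-Flag TAM, 81, 54 and 86 in S100A9-Flag EtOH, and 77, 70 and 103 in S100A9-Flag TAM. The ranges overlapped, with 51 to 86 in EtOH and 53 to 112 in TAM. On a log2 scale and within proteins, TAM libraries had 1.24-fold as many (log2 difference 0.32, exact permutation test over libraries, two-sided, p = 0.21, adjusted p = 0.29 over 7 comparisons). The direction turned with stricter lists, with log2 differences of −0.0117 among peaks with q at or below 1e-07, −0.228 at 1e-10 and −1.30 when each list was reduced to the same number of top peaks (exact permutation p = 0.01 for the last). Peaks on chromosomes 1 to 22 and X numbered 9523 to 34563 in EtOH and 53374 to 109395 in TAM, a 3.61-fold difference (log2 1.85, exact permutation p = 0.01).

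The share of a list that lay on unplaced sequences was lower in every TAM library than in any EtOH library. It was 0.281% and 0.242% in S100A8-Flag EtOH and 0.341%, 0.564% and 0.248% in S100A9-Flag EtOH. With TAM it was 0.114%, 0.0932% and 0.118% for S100A8-Flag and 0.104%, 0.118% and 0.0941% for S100A9-Flag. The means were 0.335% ± 0.134 (SD, n = 5) and 0.107% ± 0.0115 (SD, n = 6), and the difference within proteins was −0.216 percentage points (exact permutation p = 0.01, the smallest that the design allows, adjusted p = 0.0233). Within S100A8-Flag it was −0.153 (exact p = 0.2) and within S100A9-Flag −0.279 (exact p = 0.1), in both cases the smallest p that so few libraries can give.

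The same pattern held on and off the ribosomal DNA sequence. EtOH lists had 0.174% ± 0.0854 of their peaks (SD, n = 5) on chrUn_gl000220 and TAM lists 0.0438% ± 0.0125 (SD, n = 6). For the other unplaced sequences the shares were 0.161% ± 0.0533 and 0.0631% ± 0.00854. The differences within proteins were −0.125 and −0.0908 percentage points (exact permutation p = 0.01 and adjusted p = 0.0233 for each). On chrUn_gl000220 an EtOH library had 28 to 38 peaks and a TAM library 24 to 41 (log2 difference −0.07, exact permutation p = 0.66). On the other sequences EtOH libraries had 23 to 48 and TAM libraries 28 to 79 (1.53-fold, log2 0.61, exact permutation p = 0.11). The share on unplaced sequences was 0.0600 percentage points higher for S100A9-Flag than for S100A8-Flag within treatments, which did not pass the test (exact permutation p = 0.41), and in none of 5 measures did a test of the difference between the proteins' TAM effects pass (exact permutation p from 0.17 to 0.69).

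**Figure D1:**
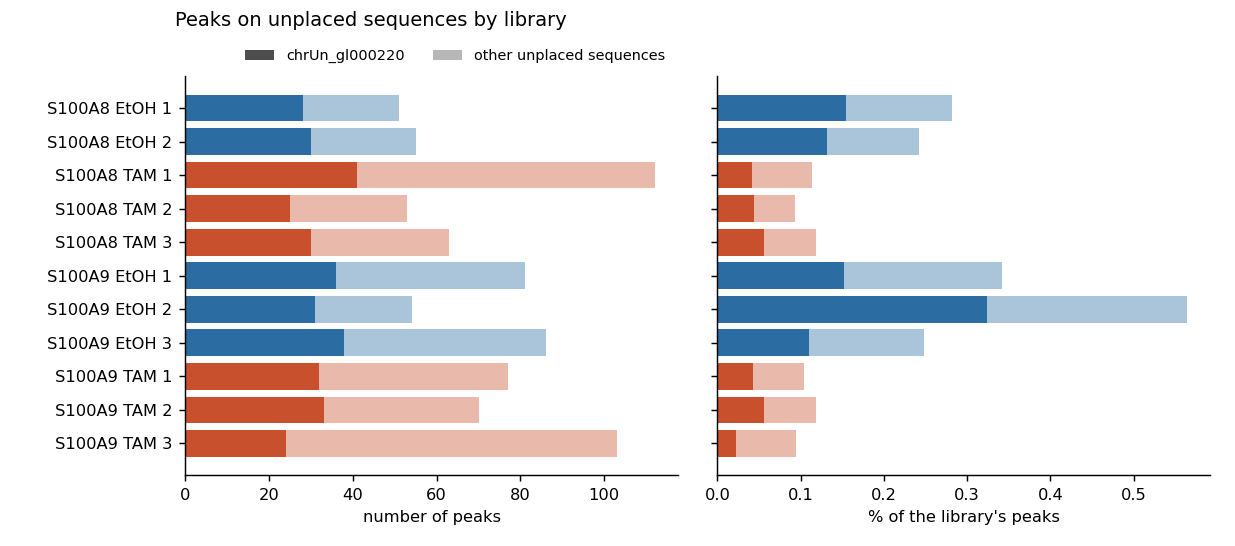
Number of peaks on unplaced sequences (left) and their share of each library's list in percent (right), for the 11 libraries. Dark bars stand for chrUn_gl000220 and pale bars for the other unplaced sequences, blue for EtOH and red for TAM. The numbers of the treatments overlap, with 51 to 86 in EtOH and 53 to 112 in TAM, while every EtOH share (0.242% to 0.564%) is above every TAM share (0.0932% to 0.118%).

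Only part of these sequences occurs once in the assembly. As an approximate guide to where reads can map uniquely, every 32-base word was counted over the whole assembly. A position was called unique when its word occurred once on either strand. Read length, read pairs and mismatches were not taken into account, so the positions that the reads could reach may differ. Unique words made up 85.3% of positions sampled on chromosomes 1 to 22 and X, 66.9% of chrUn_gl000220 and 23.3% of the other unplaced sequences. Of the 59 unplaced sequences, the 29 with a peak had 36.3% unique words over 3.60 Mb, and the 30 without a peak 7.25% over 2.51 Mb.

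Per Mb of sequence, the density of peaks on unplaced sequences was 0.814 times that on the chromosomes (log2 −0.30, exact sign-flip permutation test over the 11 libraries, p = 0.287, adjusted p = 0.335). The ratio was above 1 in every EtOH library (1.13 to 2.63) and below 1 in every TAM library (0.433 to 0.55). The pooled log2 value turned to 0.628 among peaks with q at or below 1e-07, 1.31 at 1e-10 and 0.515 in lists of equal size, none past the threshold. Per Mb of unique words, a scale added once the data had been seen, the density reached 2.84 times that on the chromosomes, with 1.51 to 1.92 in the TAM libraries and 3.94 to 9.20 in the EtOH libraries (log2 1.51, exact permutation p = 0.00098, the smallest possible). The same ratio was 17.3 on chrUn_gl000220 (exact permutation p = 0.00098) and 1.65 on the other sequences (exact permutation p = 0.0059). On chrUn_gl000220 it ran from 24.6 to 72.7 in EtOH and from 4.903 to 12.6 in TAM. On the other sequences it ran from 1.93 to 4.22 in EtOH and from 0.862 to 1.26 in TAM, so every EtOH library lay above 1 and the TAM libraries on both sides of it.

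chrUn_gl000220 is 161802 bp long and holds parts of more than 1 ribosomal repeat. Aligned with itself, it showed a first copy of most of the transcribed unit at 101549 to 117830 and a second at 145519 to 161802, 99.92% identical over 16288 bp. The second copy is cut short by the end of the sequence, so what follows the first copy, which may include the end of the 28S rRNA, has no second copy here. A 5.8S rRNA sequence matched at 112025 in the first copy and at 155997 in the second. RefSeq's order of entries on this sequence has the 28S rRNA (RNA28SN5) next after the 5.8S rRNA (RNA5-8SN5). The end of the 28S rRNA was not matched by sequence here. RefSeq coordinates come from another build, but its 5.8S starts lie 1 bp from both matches. By these coordinates RNA28SN5 overlaps 117923 to 118038, past the end of the first copy. Exact matches of the MIR6724 and MIR10396B hairpins lay upstream of the 5.8S match in both copies. The 27688 bp between the copies are called the spacer below, although by these coordinates they begin with the end of the 28S rRNA. The spacer itself holds a pair of tandem blocks (125209 to 129643 and 129645 to 134008, 86.74% identical). Before the first copy lie 101548 bp, of which 41.2% is G or C, against 67.9% in each copy.

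No peak of any library had its summit inside either of the aligned copies. Unique words made up 0.411% of the first copy and 0.474% of the second. The 348 peaks fell on both sides of the first copy, 91 before it (4 to 12 a library), where 87.1% of words were unique, and 257 in the spacer (12 to 30 a library), where 71.0% were. Inside the spacer, 85 peaks lay in the 7378 bp before the tandem blocks, 40 in the blocks themselves, where 46.8% of words were unique, and 132 in the 11510 bp after them. The last peak ended at 145550, at the start of the second copy. Positions with a peak in at least 1 library came to 28476 bp, those in 6 or more libraries to 12876 bp and those in all 11 to 3684 bp.

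**Figure D2:**
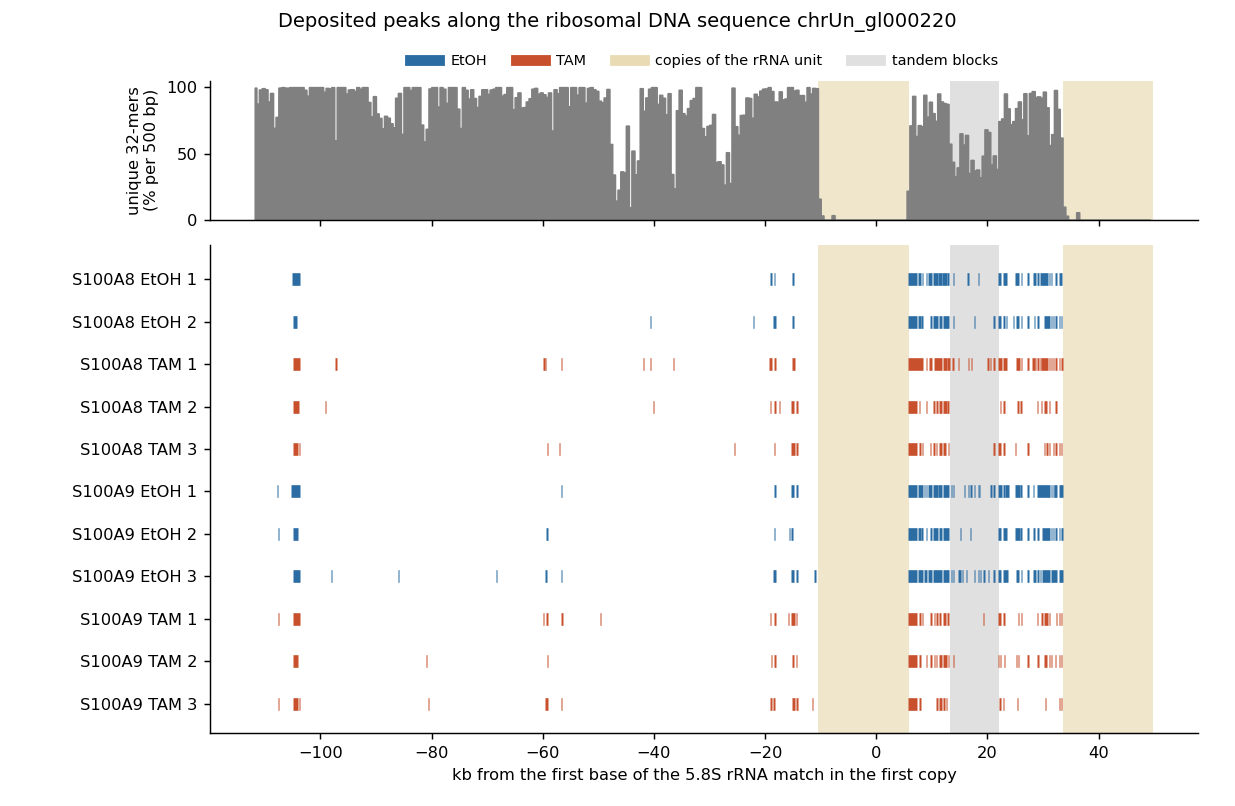
Deposited peaks of the 11 libraries along chrUn_gl000220 (lower panel, EtOH in blue, TAM in red) and the share of unique 32-base words in bins of 500 bp (upper panel, percent), against the distance in kb from the first base of the 5.8S match in the first copy. Tan shading marks the aligned copies and grey shading the tandem blocks. The copies hold almost no unique words and no summit. Of the 348 peaks, 257 lie in the spacer between them. By RefSeq coordinates of another build, that spacer begins with the end of the 28S rRNA.

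The longest stretch under a peak in all 11 libraries ran for 1555 bp from 117782 to 119336. It began 5757 bp downstream of the start of the 5.8S match, on the side of the 28S rRNA. The first copy, which holds almost no unique words, ends at 117830, close to where the stretch begins. Other stretches under a peak in all 11 libraries lay at 7201 to 7919, 93638 to 93746 and 96899 to 97106 before the first copy, and 8 in the spacer were 8 to 309 bp long.

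The region around that stretch (117754 to 120437) held the smallest q of the whole list in 10 of 11 libraries. Its highest −log10 q was 254 and 179.6 in the S100A8-Flag EtOH libraries, 281, 66.7 and 94.9 in S100A8-Flag TAM, 465, 253 and 353 in S100A9-Flag EtOH, and 210.3, 221 and 212 in S100A9-Flag TAM. In S100A8-Flag TAM replicate 2 it ranked 4 of 56872. The highest fold enrichment in the region was 9.61 and 5.89 in S100A8-Flag EtOH, 10.2, 4.54 and 8.05 in S100A8-Flag TAM, 14.4, 7.68 and 7.46 in S100A9-Flag EtOH, and 8.52, 15.1 and 8.45 in S100A9-Flag TAM. The treatments overlapped in both measures. Summits of the highest peak fell at 117923 to 118038 in 7 libraries and at 119743 to 119748 in 3, with S100A9-Flag EtOH replicate 1 at 119001. Counting all peaks of the region, 10 libraries had a summit at 117923 to 118038 and 10 had one at 119704 to 119754. By the RefSeq coordinates, RNA28SN5 overlaps the first of these stretches and not the second.

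Over the whole spacer, that region included, folds were among the lowest of the lists, and in EtOH q values were among the smallest. The median fold of the 257 spacer peaks was 2.59 and their median −log10 q 10.7. Ranked within its own library, where a high percentile means a strong peak, the median spacer peak stood at percentile 0.0823 for fold. For −log10 q the median percentile was 99.1 in EtOH, at a median −log10 q of 16.7, and 63.3 in TAM, at 7.17. The lowest fold of the list lay on chrUn_gl000220 in 10 of 11 libraries, the exception being S100A8-Flag TAM replicate 1, and 215 of the 348 peaks fell in the lowest 1% of folds of their list. At a given fold a smaller q requires more reads, and the lists hold no read numbers.

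Among peaks before the first copy the 2 measures lay closer together. Their median fold was 5.23, with a median percentile of 42.0 for fold and 69.3 for −log10 q. Peaks on the other unplaced sequences had a median fold of 5.54 in EtOH and 5.44 in TAM, beside 5.66 and 5.62 for all peaks, and their percentiles were 43.0 and 48.3 for fold and 64.3 and 53.1 for −log10 q.

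The share of peaks with q at or below 1e-07 was 17.6% over all peaks of the EtOH lists and 36.7% over those of the TAM lists. In the spacer it was 87.8% of 131 EtOH peaks and 53.2% of 126 TAM peaks, before the first copy 37.5% of 32 and 50.8% of 59, and on the other unplaced sequences 33.5% of 164 and 42.3% of 293. Since the contrast with input chose the peaks, nothing is read from these shares.

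**Figure D3:**
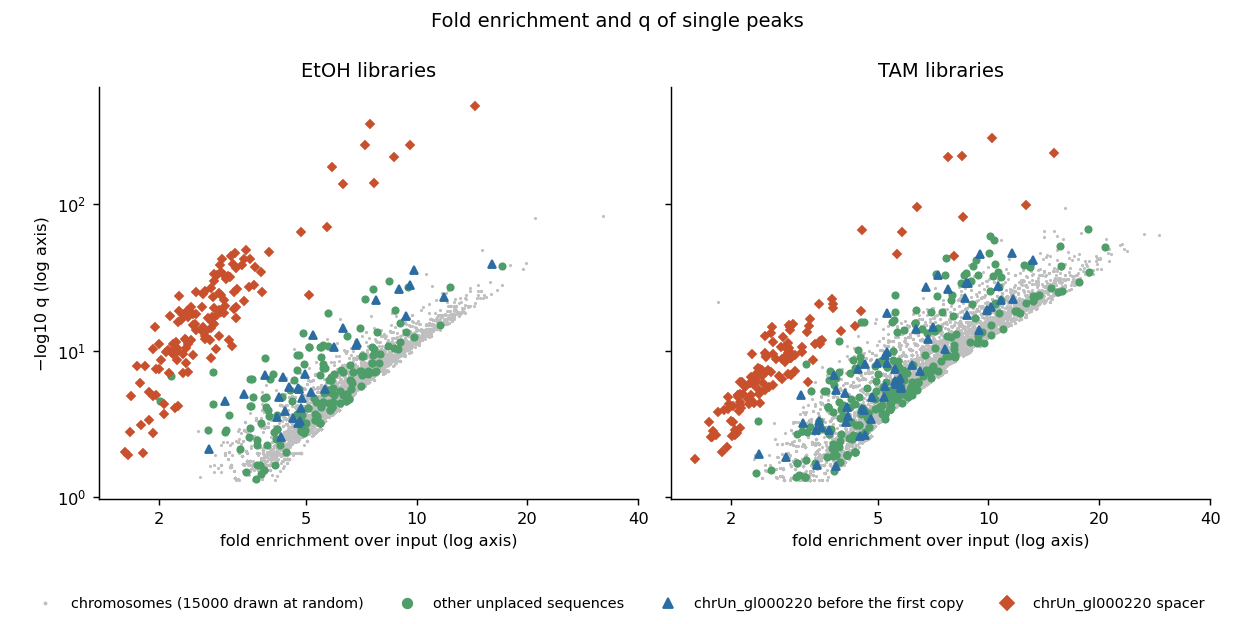
Fold enrichment over input (horizontal, log axis) and −log10 q (vertical, log axis) of single peaks in the 5 EtOH libraries (left) and the 6 TAM libraries (right). Red diamonds are spacer peaks of chrUn_gl000220, blue triangles its peaks before the first copy, green circles peaks on other unplaced sequences, and grey points 15000 chromosomal peaks drawn at random. Spacer peaks form a band at low fold (median 2.59), apart from most others, and reach smaller q in EtOH (median −log10 q 16.7) than in TAM (7.17).

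TAM libraries had less of the spacer under peaks than EtOH libraries, but not beyond the adjusted threshold. The covered share was 47.5% and 41.8% in S100A8-Flag EtOH, 52.0%, 23.3% and 26.3% in S100A8-Flag TAM, 57.1%, 44.8% and 59.2% in S100A9-Flag EtOH, and 28.8%, 27.9% and 15.6% in S100A9-Flag TAM. All TAM libraries but S100A8-Flag TAM replicate 1, which had the second longest list, lay below all EtOH libraries. S100A9-Flag TAM replicate 3, which had the longest list, had the lowest covered share, 15.6%. The means were 50.1% ± 7.67 (SD, n = 5) and 29.0% ± 12.2 (SD, n = 6), and the difference within proteins was −20.2 percentage points (exact permutation p = 0.03, adjusted p = 0.09 over 12 comparisons of segments). Leaving out 1 library at a time gave −24.7 to −17.5, with p from 0.0167 without S100A8-Flag TAM replicate 1 to 0.1 without S100A8-Flag EtOH replicate 1. The number of spacer peaks, 24 to 30 in EtOH and 12 to 29 in TAM, differed by −4.92 (exact permutation p = 0.15, adjusted p = 0.23).

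After the tandem blocks EtOH libraries had 57.9% ± 5.87 covered (SD, n = 5) and TAM libraries 29.3% ± 15.05 (SD, n = 6; exact permutation p = 0.02, adjusted p = 0.09), and before them 78.4% ± 6.44 and 57.5% ± 12.7 (exact permutation p = 0.03, adjusted p = 0.09). Before the first copy the means of the peak numbers stood the other way, with 6.40 ± 2.30 peaks in EtOH and 9.83 ± 2.04 in TAM (exact permutation p = 0.02, adjusted p = 0.09). Over the whole of chrUn_gl000220 the covered share was 10.3% ± 1.77 in EtOH and 7.10% ± 2.34 in TAM (exact permutation p = 0.06, adjusted p = 0.105). A TAM library calls more of its peaks on chromosomes, and how read depth and list length bear on the covered length was not tested.

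Regions on chrUn_gl000220 were shared by more libraries than regions elsewhere, counted without a test. Overlapping peaks of the 11 lists were merged into 264229 regions, of which 278 lay on unplaced sequences, 58 of them on chrUn_gl000220. Of all regions, 0.699% were called in all 11 libraries, 8.78% in 6 or more and 70.9% in 1 library. On chrUn_gl000220, 10 of 58 regions (17.2%) were called in all 11, 21 (36.2%) in 6 or more and 22 (37.9%) in 1. With each peak reduced to 200 bp around its summit, 2 of 83 regions (2.41%, beside 0.495% over all regions) were in all 11 and 27 (32.5%) in 6 or more, so the first share depends on how peaks are merged. Elsewhere on unplaced sequences, 4 of 220 (1.82%) were called in all 11, 16 (7.27%) in 6 or more and 163 (74.1%) in 1. The last 2 shares are close to those over all regions, and the first rests on 4 regions. Within chrUn_gl000220 the regions in 6 or more libraries were 15 of 28 in the spacer and 6 of 30 before the first copy. The tandem blocks held 13 regions, of which 1 reached 6 libraries, whereas 5 of 5 did so before them and 9 of 10 after them.

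**Figure D4:**
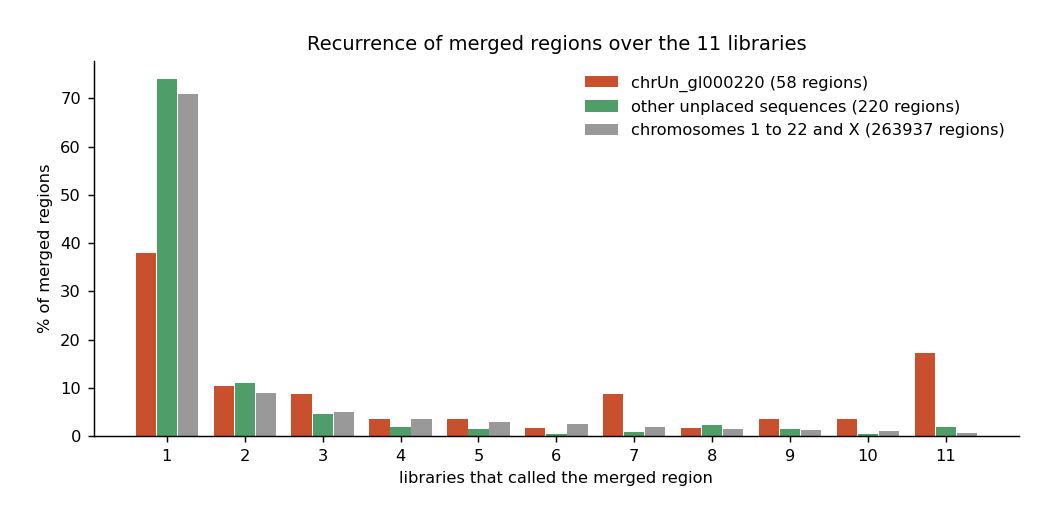
Percent of merged regions (vertical) by the number of libraries that called them (horizontal), for chrUn_gl000220, the other unplaced sequences and chromosomes 1 to 22 and X. Regions in all 11 libraries made from whole peaks are 17.2% on chrUn_gl000220, 1.82% on the other unplaced sequences and 0.694% on chromosomes.

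Replicates of a group mostly shared more of their chrUn_gl000220 peaks than of their chromosomal peaks. Over ordered pairs of EtOH libraries of the same protein, a median of 82.9% of the peaks on chrUn_gl000220 overlapped a peak of the other library, against 41.7% on the other unplaced sequences and 30.3% on chromosomes. In TAM the medians were 69.4%, 49.2% and 45.2%. S100A9-Flag TAM replicate 2 went the other way against replicate 3, with 54.5% of its chrUn_gl000220 peaks and 67.1% of its chromosomal peaks overlapping. Peaks on chrUn_gl000220 were wider, with a median of 348 bp in EtOH and 271 bp in TAM, beside 168 and 162 bp over all peaks. EtOH peaks also covered 41.8% to 59.2% of the spacer, and wide, dense peaks overlap more readily. How far width and coverage bear on these shares was not tested. Summits agreed less closely than regions did. Grouped where windows of 25 bp on either side overlapped, the chrUn_gl000220 summits formed 119 clusters, of which 20 held 6 or more libraries and 1 held all 11, at 96986 to 97075.

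The region with that summit cluster, 96643 to 97452, lies about 15 kb upstream of the 5.8S match and had the highest mean fold percentile of chrUn_gl000220, 87.8. Its fold was 11.9 and 5.97 in S100A8-Flag EtOH, 8.72, 10.8 and 10.2 in S100A8-Flag TAM, 9.61, 9.38 and 6.31 in S100A9-Flag EtOH, and 11.67, 9.89 and 7.77 in S100A9-Flag TAM. The treatments overlapped. The region at 6681 to 8338 had folds of 16.1 and 8.95, then 11.6, 6.78 and 8.69, then 5.25, 3.87 and 7.76, then 8.82, 13.2 and 9.51 in the same order, with both the highest and the lowest value in EtOH. The third, at 93518 to 94067, ranged from 3.02 to 9.86 in EtOH and from 3.81 to 10.6 in TAM. All 3 consisted of at least 90% unique words.

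The 8 other spacer regions that were ranked highest reached folds of only 1.96 to 5.66. They lay at 122232 to 123829, 123922 to 125273, 133941 to 134547, 134766 to 135948, 137024 to 137833 and 140903 to 143342, all in 11 libraries, and at 143420 to 144578 and 144810 to 145550, both in 5 EtOH and 5 TAM libraries. Median folds were 2.62 to 3.21 in EtOH and 2.23 to 3.18 in TAM. Among the peaks with the highest fold, the largest −log10 q of a region was 24.9 to 48.7 in EtOH. In TAM it was 11.3 to 22.6, except for 45.8 at 122232 to 123829.

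**Figure D5:**
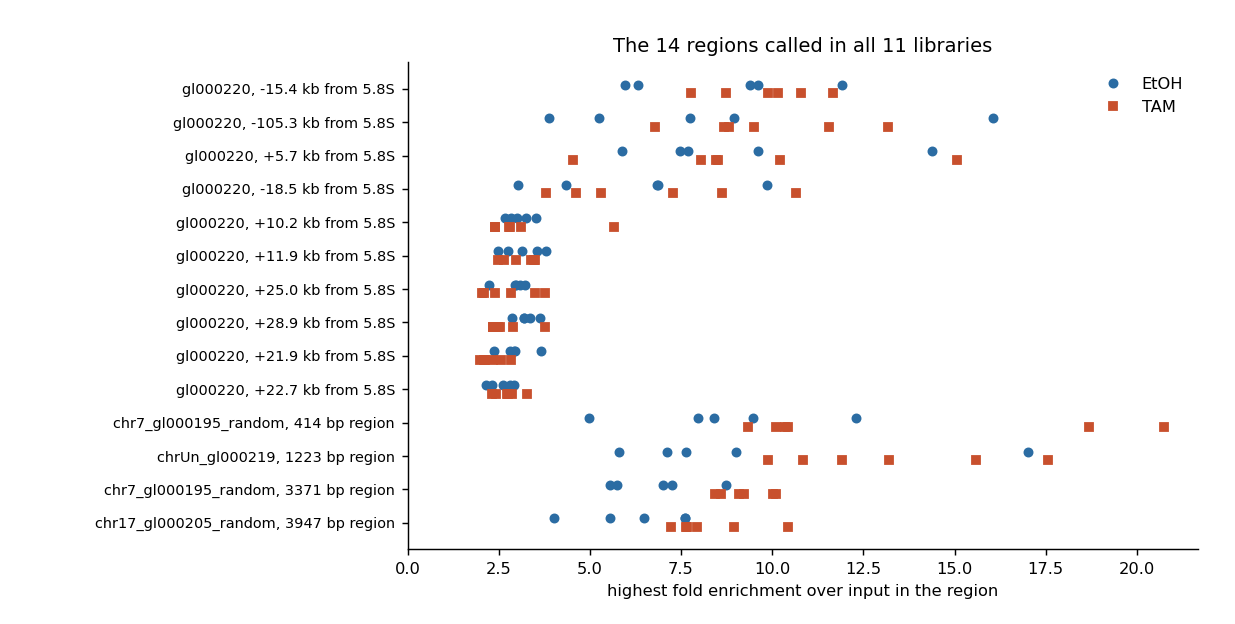
Highest fold enrichment over input in each library (horizontal) at the 14 regions called in all 11 libraries, with EtOH libraries as blue circles and TAM libraries as red squares. Regions of chrUn_gl000220 are named by the distance of their start from the 5.8S match. The 6 lower-ranked spacer regions reach at most 5.66-fold, whereas each of the other 8 regions reaches 10.1-fold or more in at least 1 library.

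The other unplaced sequences were led by chr7_gl000195_random with 140 peaks and chr17_gl000205_random with 83. After them came chrUn_gl000214 with 34, chrUn_gl000219 and chrUn_gl000225 with 32 each, chrUn_gl000224 with 29, chr11_gl000202_random with 27, chr1_gl000192_random with 18, chr4_gl000193_random with 12 and chrUn_gl000234 with 10. The remaining 18 sequences had 1 to 5 peaks each, 40 in all. The first 2 and chrUn_gl000219 had peaks in all 11 libraries, as chrUn_gl000220 did. Per kb of unique words, chr11_gl000202_random had 1.52 peaks, chr7_gl000195_random 1.43 and chr17_gl000205_random 0.931, below the 3.22 of chrUn_gl000220.

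Of the 4 regions off chrUn_gl000220 that all 11 libraries called, a 414-bp region of chr7_gl000195_random (103254 to 103667) ranked highest by fold. Its fold was 12.3 and 7.96 in S100A8-Flag EtOH, 20.7, 10.1 and 10.4 in S100A8-Flag TAM, 9.48, 4.96 and 8.40 in S100A9-Flag EtOH, and 18.7, 9.34 and 10.4 in S100A9-Flag TAM. The treatments overlapped over all libraries, whereas the S100A9-Flag EtOH replicates 2 and 3 and S100A8-Flag EtOH replicate 2 lay below every TAM library. Summits of all 11 libraries fell within 166 bp, and the printed window holds the CTCF motif, the recognition sequence of the insulator protein CTCF.

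The chrUn_gl000219 region (99069 to 100291) had folds of 5.79 and 7.12 in S100A8-Flag EtOH and 13.2, 10.8 and 9.88 in S100A8-Flag TAM. For S100A9-Flag they were 17.01, 7.64 and 9.01 in EtOH and 17.6, 11.9 and 15.6 in TAM. All TAM libraries but none of the EtOH libraries other than S100A9-Flag EtOH replicate 1 exceeded 9.8. The second chr7_gl000195_random region (30097 to 33467) had folds of 5.56 to 8.73 in EtOH and 8.43 to 10.1 in TAM, and the chr17_gl000205_random region (84510 to 88456) 4.01 to 7.62 and 7.23 to 10.4.

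Next by number of libraries, with ties broken by mean fold percentile, came 5 more regions of chr7_gl000195_random and 1 of chr11_gl000202_random. They lay on chr7_gl000195_random at 74457 to 74867 in 10 libraries, at 68576 to 68942, 86260 to 86826 and 1 to 418 in 9 each and at 121038 to 121267 in 8, and on chr11_gl000202_random at 16294 to 16639 in 8. Except at 86260 to 86826, which 5 EtOH and 4 TAM libraries called, more of the 6 TAM than of the 5 EtOH libraries had a peak. Regions in 8 libraries left unnamed lay on chr17_gl000205_random (3 EtOH and 5 TAM), chr1_gl000192_random (2 and 6) and chrUn_gl000224 (4 and 4). TAM lists were longer. Of all merged regions, 15.4% were called in 2 or more TAM and no EtOH library, and 0.181% the other way round. Nothing about these regions is read from the counts.

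Regions called in 2 or more EtOH libraries and in no TAM library were few. When regions called in only 1 EtOH library are counted too, 68 of 278 regions on unplaced sequences (24.5%) had no TAM peak. On chrUn_gl000220 these were 12 of 58, and over all merged regions 11.99%. Of all merged regions, 25.5% had a peak in at least 1 EtOH library, 0.181% in 2 or more EtOH libraries and no TAM library, and 15.4% in 2 or more TAM libraries and no EtOH library. On unplaced sequences these were 50.7%, 2.52% (7 of 278) and 4.68% (13 of 278). On chrUn_gl000220 the last 2 were 3 and 1 of 58. The highest-ranked EtOH regions without a TAM peak lay in the second tandem block or across the join of the blocks, at 130265 to 130488 and 129581 to 129760, each in 3 libraries, with folds of 2.37 to 3.16 and 2.02 to 2.67 and summits within 7 and 8 bp. Unique words made up 38.8% and 36.7% of them. Then came chrUn_gl000214 at 62728 to 62918 and 23398 to 23595 and chr11_gl000202_random at 11648 to 11902, each in 2 libraries.

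Several recurrent regions resembled each other. Among the 37 regions called in 6 or more libraries, 20 aligned with at least 1 other. The chr17_gl000205_random region at 84510 aligned with the chr7_gl000195_random region at 30097 over 2570 bp on the opposite strand with 78.7% identity, and both aligned more weakly with the chrUn_gl000220 region at 6681 (65.1% over 707 bp and 65.6% over 803 bp). The chr7_gl000195_random regions at 103254 and 121038 shared 230 bp on opposite strands with 94.3% identity. Most of the other pairs lay within the spacer.

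Chromosomal matches of recurrent regions mostly had no peak. Of the 93 regions called in 2 or more libraries, 23 had a chromosomal match over at least 50% of their length with at least 90% identity, 4 of 25 in the spacer, 0 of 11 before the first copy and 19 of 57 on other sequences. Only the best match of each region was examined. How often any chromosomal stretch of such length holds a peak was not counted, so the next number has no background beside it. At 1 of the 23 matches a peak was listed. This was the chr1_gl000192_random region whose match on chromosome 1 (144533827 to 144534309, minus strand, 97.5% identical) overlaps the U1 small nuclear RNA pseudogene RNU1-59P. That region was called in 8 libraries and its match in 4. The chrUn_gl000219 region matched chromosome 9 (68454806 to 68456029, 92.0% identical over 1230 bp) at the pseudogene FRG1JP, where no library had a peak. The chr7_gl000195_random region at 1 to 418 matched the pseudogene CTBP2P4 on chromosome 5 (97912294 to 97912709, 92.1% identical), again with no peak. Reads that fit both places are dropped when only unique reads are kept, and how this divided the peaks between a region and its match was not tested.

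Motif content was examined in 1 window per merged region, 100 bp on either side of a summit. The summit was that of the peak with the highest fold percentile within its own library. ETS factors recognise CGGAAG, AP-1 TGACTCA, KLF and SP1 factors CCCCGCCC and CREB TGACGTCA. All were searched on both strands without mismatch, together with the CTCF motif by name and the satellite unit GGAATGG. In 263937 chromosomal regions ETS was held by 5.08%, AP-1 by 13.1%, KLF/SP1 by 3.14%, CREB by 0.323%, CTCF by 3.49% and the satellite unit by 3.37%. Of the 28 spacer windows 2 held ETS (7.14%) and none held any other of these motifs. Of the 30 windows before the first copy 3 held AP-1 and 1 each held ETS, KLF/SP1 and CTCF. Of the 220 windows elsewhere 7 held ETS (3.18%), 8 AP-1 (3.64%), 2 KLF/SP1, 1 CREB, 9 CTCF (4.09%) and 5 the satellite unit. No motif searched contains another, and a missing match says only that these letters are not in the window.

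In these windows, regions called in 6 or more libraries had a higher median GC content than all regions of their class. The median was 59.2% in 15 such spacer regions, 52.5% in 6 before the first copy, 54.5% in 16 elsewhere and 61.2% in 23158 on chromosomes. Over all regions of these classes it was 53.5%, 51.2%, 50.7% and 51.2%. CpG dinucleotides per 100 bp were 5.47, 4.73, 3.48 and 4.98 in the same order, beside 1.49 over all chromosomal regions. With 50 bp on either side, the GC order turned before the first copy, with 53.5% in the 6 regions and 54.0% in all 30. Among the 16 recurrent regions elsewhere 4 held the CTCF motif and 2 AP-1, where 9.72% and 20.3% of recurrent chromosomal regions did.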

How the data were processed

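Flag ChIP-seq lists of 11 of the 24 samples of the series were analysed. Per the labels and the study's methods, cells were cross-linked with protein-protein linkers and then formaldehyde, and reads were aligned to hg19 with Bowtie2, uniquely mapped reads were kept, and MACS2 called narrow peaks in each library against its own input, without pooling. Versions are not given in the sources used here. The authors deposited for each peak its position, summit, a score, the fold enrichment over input (a ratio) and −log10 p and −log10 q values. The lists hold no counts of reads, so depth is unknown and no counting interval can be given. All peaks reach q = 0.05.

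All peaks on sequences whose names begin with chrUn or end with random were taken. Peaks overlapping by 1 bp or more were merged over the 11 lists. Treatments were compared by exact permutation of libraries within proteins (200 arrangements, two-sided, smallest p 0.01), and densities by exact sign flips. p-values were adjusted by Benjamini-Hochberg over 7 comparisons, and separately over 12 for the segments of chrUn_gl000220. The tests were checked on simulated data. Replicates are separate samples by their labels, and p-values measure the spread between them. Unique words of 32 bases were counted over the GRCh37 assembly with numba 0.67.0, exactly on unplaced sequences and at 186869 sampled chromosomal positions. Segments and matches came from BLAST 2.17.0. Names of rRNA genes and their order came from RefSeq entries of another build. Where the text gives an overlap with an rRNA gene, it rests on the coordinates of that build. The GENCODE annotation used here lists no gene on these sequences, so genes within reach of a region were not counted. Python 3.11.15, pandas 2.3.3 and numpy 2.4.6 were used.

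Members and lists were chosen with earlier results of these data known. Regions were named by number of libraries and then mean fold percentile, the first 12 on chrUn_gl000220, the first 10 elsewhere and the first 5 with 2 or more EtOH and no TAM library. Sequences were named when they held at least 1% of the unplaced peaks. Libraries with the same number were not treated as paired in the main tests. Over 93 regions, the correlations of their deviations were −0.197 to 0.114 in 5 pairs, which cannot exclude that they were handled together. Alternatives were q limits of 1e-07 and 1e-10, lists of equal size, subsets of sequences, other merging rules, windows of 50 bp on either side, a replicate block and leaving out each library.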

Additional observations from a re-analysis of the deposited data

Results flagged for a closer look

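1 of 14 checks for a library far from the others of its treatment met the limit, where chance gives about 1 in 20. The share of peaks on chrUn_gl000220 was 0.324% in S100A9-Flag EtOH replicate 2, against 0.110% to 0.154% in the other 4 EtOH libraries. This library had the shortest list, 9578 peaks, of which 31 lay on chrUn_gl000220, within the range of 28 to 38 of the EtOH libraries. Without it, the TAM to EtOH difference of this share was −0.0932 percentage points (exact permutation p = 0.02).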

How the results depend on the processing

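The lower share of unplaced peaks with TAM, on chrUn_gl000220 and elsewhere, kept its direction and stayed past the threshold at both q limits, in lists of equal size and without any 1 library (−0.25 to −0.171, −0.147 to −0.0932 and −0.104 to −0.0782 percentage points). With the replicate block (exact sign-flip permutation over 5 pairs, smallest p 0.0625), the shares differed by −0.231, −0.133 and −0.0977 points at that p. The labels do not say whether replicate numbers pair the libraries, and the block changed no other call.

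The number of unplaced peaks, +0.316 on the log2 scale without a called difference, was −0.0117 at q of 1e-07, −0.228 at 1e-10, −1.30 in lists of equal size (exact permutation p = 0.01) and 0.665 on random sequences alone (exact permutation p = 0.03). The density against chromosomes per Mb, log2 −0.297, was 0.628 at 1e-07, 1.31 at 1e-10, 0.515 in lists of equal size, 1.51 per unique word (an alternative added after the data were seen) and −1.15 without chrUn_gl000220 (exact permutation p = 0.0029). The covered share of chrUn_gl000220, −2.98 points, passed the threshold at 1e-07 (−3.92), at 1e-10 (−4.37), in lists of equal size (−6.23) and without S100A8-Flag TAM replicate 1, and ranged from −3.91 to −2.46 over the left-out libraries. The cause of these changes was not tested. With 200 bp around each summit, 2 of 83 in place of 10 of 58 regions on chrUn_gl000220 were in all 11 libraries. At 1e-07, 8 in place of 16 regions off chrUn_gl000220 were in 6 or more libraries. In windows of 50 bp on either side the ETS motif was in 0 of the spacer windows, 0 of those before the first copy and 1.36% of the others. Haplotype sequences held no peak, so leaving them out could not be run. The unknown read depth limits every comparison of list length and covered length.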
